A study of Homo sapiens with 6 samples.

Results

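The 36 genes of the core autophagy machinery were compared between ACHN cells treated with curcumol and control ACHN cells. The genes were taken by symbol from the deposited count table of 58735 genes: the ULK kinase complex, the VPS34 lipid kinase complex with its regulators, the proteins that bring lipid to the growing membrane, the enzymes that attach ATG8 proteins to lipid, and a set of factors for fusion with lysosomes. All 36 symbols were found once, and all 36 passed the filter on low counts that left 15160 genes for testing. ACHN is an established human renal carcinoma line, called clear cell renal cell carcinoma by the submitters, with a wild-type genotype in the labels. Curcumol is a sesquiterpenoid from the oil of Curcuma rhizomes. Poly(A) RNA was sequenced from 3 control and 3 curcumol cultures, which the submitters call independent biological replicates. The control is a vehicle control in the sample labels and an undrugged blank in the series' design text, so what it received is uncertain, and dose and exposure time are not stated in its labels. The series asked how curcumol acts on glycolysis and malignant behaviour, and it names no question about autophagy.

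Macroautophagy wraps cytoplasm in a double membrane, the autophagosome, and delivers it to the lysosome for breakdown. The ULK kinase complex starts the process, the VPS34 complex makes the lipid phosphatidylinositol 3-phosphate (PI3P) on the forming membrane, ATG9A vesicles and ATG2 lipid transfer proteins feed it, and WIPI proteins read the PI3P. ATG7 and the E2-like enzymes ATG3 and ATG10 then run a pair of ubiquitin-like conjugation reactions, which join ATG12 to ATG5 and ATG8 proteins to a membrane lipid, and ATG4 proteases trim and release ATG8 proteins. The closed autophagosome fuses with a lysosome through tethers and SNARE proteins. Much of the control of this pathway lies in phosphorylation and protein turnover, which mRNA counts do not measure.

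Most core autophagy genes had higher mRNA in curcumol, and a smaller group, spread over 4 of the 5 functional steps, had lower mRNA. Of the 36 genes, 26 were higher (72.2%) and 7 were lower (19.4%), with 3 that did not pass (edgeR quasi-likelihood test, adjusted p under 0.05, Benjamini-Hochberg over all genes tested). The treatment went with wide change across the transcriptome: 79.7% of all genes tested were called, with 39.4% of genes tested higher and 40.3% lower. The share of core autophagy genes called in either direction (91.7%) therefore lay not far above that of all genes, and above that of genes in the same range of levels, where 85.5% were called, 42.4% higher and 43.1% lower. The direction differed more, with a median log2 fold change of 0.78 over the 36 genes and of -0.02 over all genes tested. A change of at least 2-fold upward was seen for 13 core genes (36.1%, against 21.3% of all genes) and downward for 5 (13.9%, against 23.1%). For 35 of the 36 genes no control library overlapped the range of the curcumol libraries, where 81% of all genes tested were separated in this way.

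**Figure D1:**
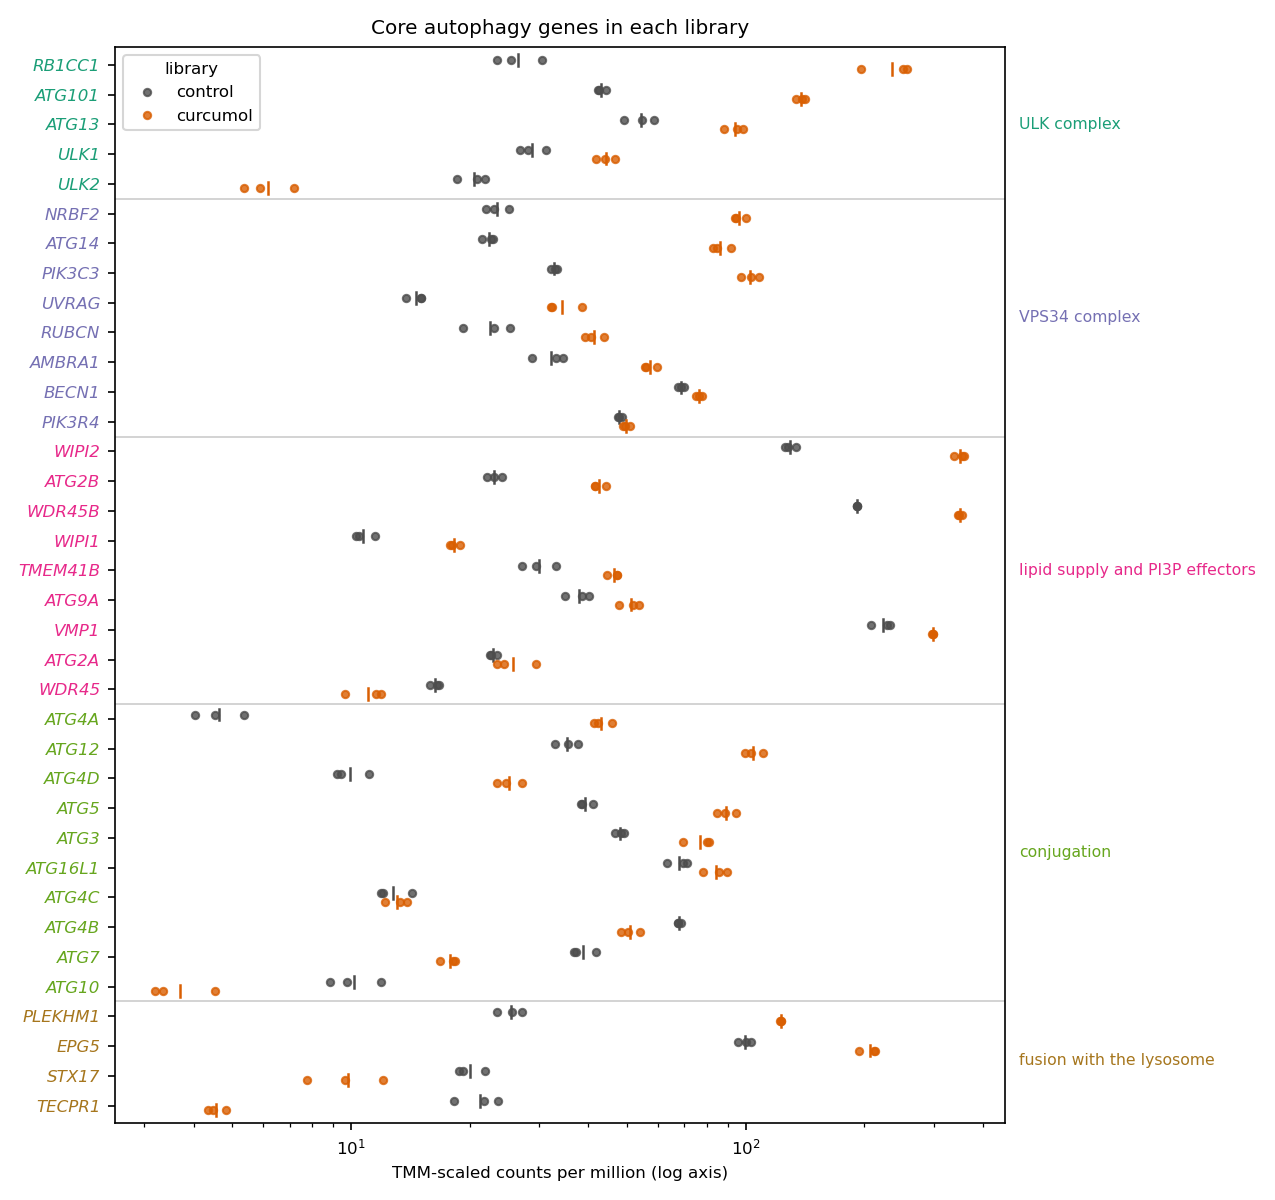
Level of each of the 36 core autophagy genes in each library, in CPM scaled with TMM factors, on a log axis. Points are libraries (3 control, 3 curcumol), short vertical lines are group means, and gene names are coloured and grouped by functional step. ATG4C is the 1 gene whose groups overlap, ATG4A and RB1CC1 are farthest to the right of their controls, and TECPR1 and ULK2 are farthest to the left.

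Levels below are CPM, counts scaled to library size with TMM factors, and changes are log2 fold changes of curcumol against control with their standard error. Because CPM is relative to the rest of the library, a change in the RNA of a whole cell, or in which cells were present, cannot be told apart from a change per cell. Scaling by library totals alone, without TMM factors, moved the median log2 fold change of all genes from -0.02 to -0.28 and that of the core genes from 0.78 to 0.51, with 23 core genes higher and 8 lower. With an offset for the GC content of each gene 25 were higher and 8 lower, with a median of 0.91. The counts at 2-fold were made with TMM factors only. With library totals UVRAG (0.96), ATG5 (0.92) and EPG5 (0.79) rose by less than 2-fold. The GC offset put ATG5, ATG12 and EPG5 below 2-fold upward, and ULK1, AMBRA1, RUBCN, ATG9A and WDR45B above it. Calls that either setting ended or turned are given beside the gene, for the core genes and the other pathway genes named here. Genes named only because their exons overlap a core gene were not followed under these settings. Of the 36 genes, 19 share exonic bases with another annotated gene, 7 of them over 10% of their own, and reads there may be counted for either gene.

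Libraries held 16962012 to 17827433 counts. The 10 most abundant genes took 5.93% to 6.44% of counts in control and 8.72% to 9.27% in curcumol, and their part in the results was not tested. Of 9 renal epithelial markers, 6 were tested and all 6 were lower in curcumol, with a summed level of 3245 to 3483 CPM in control and 2088 to 2447 CPM in curcumol, while KRT18 was higher with the GC offset and KRT19 did not pass. CA9, a marker of clear cell carcinoma, had at most 3 counts in any library, LRP2 had 0 in all, and CDH6 had at most 1. The 5 immune markers summed to 0.108 to 0.258 CPM in control and 5.06 to 5.78 CPM in curcumol, with CD3E at 0 in all libraries. CD14 was at 0, 3 and 2 counts in control and 71, 77 and 67 counts in curcumol, and PTPRC, which encodes the common leukocyte antigen CD45, was at 0 counts in every control library and at 5, 8 and 7 counts in curcumol. The 4 endothelial markers each stayed below 1 CPM, and the 4 fibroblast markers summed to 7.07 to 8.29 CPM in control and 7.62 to 16.2 CPM in curcumol. Of these, the collagen gene COL3A1 was at 0 counts in all control libraries and at 28, 58 and 23 counts in curcumol, PDGFRB rose, from 54, 45 and 43 counts to 77, 123 and 80, and COL1A1 fell by 1.14 on the log2 scale, a call that was lost with the GC offset. The part of these markers in the results was not tested.

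Promoter sequences are shown for 5 genes, picked by motif or by size of change. ATG14, NRBF2 and ATG3 are the core genes whose promoter held the E-box CACGTG, the core of the element bound by TFEB. TFEB is a transcription factor known for autophagy and lysosome genes. All 3 E-box genes had higher mRNA, but so had 26 of the 36 core genes (72.2%), also counting those without a promoter to search. ATG4A had the largest rise and TECPR1 the largest fall of the 36. Each run is the 250 bases before the RefSeq gene start (GRCh38.p14), written 5′ to 3′ on the gene's strand, with capitals for CACGTG in the first 3 and for ACGTG, on either strand, in the last pair.
ATG14, chr14:55411831-55412080, minus strand: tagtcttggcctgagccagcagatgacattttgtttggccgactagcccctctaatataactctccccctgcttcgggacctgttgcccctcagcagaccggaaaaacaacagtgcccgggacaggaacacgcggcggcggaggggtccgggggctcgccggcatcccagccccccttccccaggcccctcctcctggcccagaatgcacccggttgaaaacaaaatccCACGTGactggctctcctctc
NRBF2, chr10:63133078-63133327, plus strand: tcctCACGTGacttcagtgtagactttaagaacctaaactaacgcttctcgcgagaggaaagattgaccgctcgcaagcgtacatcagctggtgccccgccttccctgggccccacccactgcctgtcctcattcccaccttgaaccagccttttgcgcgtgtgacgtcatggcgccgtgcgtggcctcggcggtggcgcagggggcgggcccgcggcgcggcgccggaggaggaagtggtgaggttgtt
ATG3, chr3:112561963-112562212, minus strand: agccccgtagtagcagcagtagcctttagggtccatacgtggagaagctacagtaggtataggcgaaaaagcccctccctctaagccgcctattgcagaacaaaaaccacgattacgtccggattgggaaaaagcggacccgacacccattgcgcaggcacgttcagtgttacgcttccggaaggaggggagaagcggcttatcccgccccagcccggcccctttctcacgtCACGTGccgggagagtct
ATG4A, chrX:108091528-108091777, plus strand: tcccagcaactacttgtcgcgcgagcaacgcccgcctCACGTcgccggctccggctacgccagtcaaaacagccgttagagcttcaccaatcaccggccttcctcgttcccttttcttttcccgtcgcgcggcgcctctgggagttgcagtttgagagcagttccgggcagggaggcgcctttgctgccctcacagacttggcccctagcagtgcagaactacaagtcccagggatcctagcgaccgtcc
TECPR1, chr7:98252233-98252482, minus strand: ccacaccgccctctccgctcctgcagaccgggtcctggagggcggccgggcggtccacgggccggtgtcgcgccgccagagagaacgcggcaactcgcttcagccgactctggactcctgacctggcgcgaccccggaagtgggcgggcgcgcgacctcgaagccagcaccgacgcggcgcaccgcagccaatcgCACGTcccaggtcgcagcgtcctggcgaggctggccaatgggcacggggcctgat

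The E-box began 21 bases before the RefSeq start in ATG14, 246 bases before it in NRBF2 and 18 bases before it in ATG3. GENCODE 29 starts ATG14 at 55411858 and ATG3 at 112562046, upstream of these RefSeq starts. By that annotation the E-boxes of ATG14 and ATG3 lie inside the gene. RefSeq promoters were matched for 30 of the 36 genes, so CACGTG was found in 10% of them, against 11.3% of the 10546 tested genes with a promoter in the table and 6.34% of all 35116 promoters. ACGTG, the core of the element bound by hypoxia-inducible factors, is also part of CACGTG. It was found in 13 of the 30 (43.3%), against 28.9% of tested genes and 18.5% of all promoters. Of the 13 genes 11 rose and 2 fell, where 26 of all 36 core genes rose and 7 fell. The 36 include genes without a promoter to search: ATG4D, EPG5, RB1CC1, UVRAG and WDR45B, which rose, and STX17, which fell. Both strands were searched. The shares of core and tested genes count a gene once if any of its promoters matched. Those of all promoters count each promoter, also of genes not tested, so the units differ. GATGNAA, part of the ATF4 and CHOP element, and GTAAACA, a FOXO element, were in 0 of the 30, against 8.08% and 3.06% of tested genes. The AP-1 element TGANTCA was in WDR45 alone (3.33% of the 30), against 6.29% of tested genes. A match is a description of these letters and not evidence of binding, and ACGTG stood in the promoter of the gene that rose most and of the gene that fell most.

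In the ULK complex, which receives signals from nutrient-sensing kinases, 4 of 5 genes rose and ULK2 fell. The counts were the same with library totals and with the GC offset. Among all genes tested 39.4% rose and 40.3% fell. No control and curcumol values of the 5 genes overlapped, where 81% of all genes tested were separated in this way. RB1CC1, the scaffold subunit FIP200 that also binds cargo receptors (ENSG00000023287, chromosome 8, 52622456 to 52745843, GRCh38), stood at 25.5, 23.5 and 30.5 CPM in the control libraries and at 196, 251 and 257 CPM in the curcumol libraries. Its log2 fold change was 3.15 ± 0.12 (SE, adjusted p = 1.64e-10 by edgeR), an 8.86-fold difference, with curcumol replicate 1 the lowest of the treated libraries. ATG101, which binds and stabilises ATG13, was at 44.4, 42.3 and 42.5 CPM in control and 139, 134 and 141 CPM in curcumol, a log2 fold change of 1.68 ± 0.07 (SE, adjusted p = 1.35e-15 by edgeR). ATG101 shares 614 exonic bases (19.2%) with AC025259.1 on the other strand, which held at most 1 count per library on average. The kinase regulator ATG13 rose from 54.2 ± 4.68 to 94 ± 5.39 CPM (n = 3, SD), which is a log2 change of 0.79 ± 0.08.

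The paired kinases of that complex moved apart. ULK1, the kinase most often credited with starting autophagy, was at 31.2, 28.1 and 26.9 CPM in control and 44.1, 41.9 and 46.6 CPM in curcumol, a log2 fold change of 0.62 ± 0.09 (SE, adjusted p = 1.12e-06 by edgeR). ULK2, its close relative with overlapping function (ENSG00000083290, chromosome 17, 19770829 to 19867936), was at 18.6, 20.9 and 21.9 CPM in control and 5.38, 5.9 and 7.2 CPM in curcumol. It fell by 1.73 ± 0.13 on the log2 scale (SE, adjusted p = 9.38e-11 by edgeR), so every curcumol library held less than any control library. Per kilobase of joined exon the summed ULK1 and ULK2 level was 5.86 ± 0.115 CPM in control and 6.44 ± 0.38 CPM in curcumol (SD, n = 3), while the share of ULK1 in that sum went from 64.4% ± 3.61 to 90.3% ± 1.03. The size of the ULK1 change depended on scaling, with log2 values of 0.36 with library totals and 1.37 with the GC offset, and 64.2% of the bases of its transcript are G or C.

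In the VPS34 complex 7 of 8 genes rose, PIK3R4 did not pass, and the median was 1.05 on the log2 scale. With library totals, and also with the GC offset, 6 rose and 1 fell. For comparison, 39.4% of all genes tested rose and 40.3% fell. PIK3C3, the catalytic subunit VPS34 (ENSG00000078142, chromosome 18, 41955206 to 42087830), was at 33.3, 32.1 and 33 CPM in control and 97.4, 108 and 103 CPM in curcumol. Its log2 fold change was 1.65 ± 0.07 (SE, adjusted p = 8.15e-15 by edgeR). The scaffold gene BECN1 rose by 0.15 ± 0.07, with 68.8, 69.9 and 67.5 CPM in control and 77.7, 74.8 and 76 CPM in curcumol (edgeR adjusted p = 0.0484). That call was lost when any 1 of the 6 libraries was left out (edgeR adjusted p from 0.0619 without curcumol replicate 2 to 0.158 without control replicate 3). BECN1 stood at -0.12 with library totals and at -0.05 with the GC offset. On the other strand it shares 795 exonic bases (12.4%) with CNTD1, which held 15 counts per library in both groups, and 300 (4.68%) with PSME3, which went from 6837 to 3087 counts per library. PIK3R4, the regulatory subunit VPS15, was at 0.05 ± 0.07 and did not pass (edgeR adjusted p = 0.502), but passed as lower with library totals (-0.21) and with the GC offset (-0.22).

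The subunits that tell the autophagy form of the VPS34 complex from its endosomal form both rose. ATG14, which sends the complex to the forming autophagosome (ENSG00000126775, chromosome 14, 55366392 to 55411858), was at 21.5, 22.9 and 22.6 CPM in control and 84.4, 82.5 and 92 CPM in curcumol, a log2 fold change of 1.95 ± 0.08 (SE, adjusted p = 2.17e-15 by edgeR). NRBF2, a subunit of the ATG14 form (ENSG00000148572, chromosome 10, 63133247 to 63155031), went from 22, 25.2 and 23.1 CPM to 94.7, 93.8 and 100 CPM, a log2 fold change of 2.04 ± 0.08 (SE, adjusted p = 9.04e-16 by edgeR). Both promoters with their E-box are shown above. UVRAG, which replaces ATG14 in the endosomal form, rose from 14.7 ± 0.734 to 34.3 ± 3.67 CPM (n = 3, SD), which is a log2 change of 1.23 ± 0.10. RUBCN, the inhibitor Rubicon that binds the UVRAG form, rose by 0.88 ± 0.10, and AMBRA1, which links BECN1 and ULK1 to ubiquitin ligases, rose by 0.83 ± 0.08. NRBF2 has 5 annotated pseudogenes, which together held 2.33 counts per library in control and 11.3 in curcumol, against 448 and 1519 for NRBF2 itself.

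Of the 9 genes that supply lipid or read PI3P, 7 rose, WDR45 fell and ATG2A did not pass. Library totals and the GC offset each gave 6 higher and 1 lower. The shares over all genes tested were 39.4% higher and 40.3% lower. WIPI2, the PI3P reader that brings in ATG16L1 (ENSG00000157954, chromosome 7, 5190188 to 5233826), was at 126, 134 and 128 CPM in control and 358, 338 and 353 CPM in curcumol. Its log2 fold change of 1.43 ± 0.06 (SE, adjusted p = 1.54e-15 by edgeR) was the largest of this step. WDR45B, also called WIPI3, rose by 0.87 ± 0.05 from the highest level per length of the 36 genes, 54 to 98.7 CPM per kilobase of exon, and WIPI1 rose by 0.77 ± 0.11. WDR45, also called WIPI4 and known for its tie to ATG2 proteins, was at 16.7, 15.9 and 16.5 CPM in control and 11.6, 11.9 and 9.66 CPM in curcumol. It fell by 0.57 ± 0.12 on the log2 scale (SE, adjusted p = 0.00018 by edgeR), and with the GC offset it stood at -0.25 and did not pass. WDR45 shares 757 exonic bases (13.9%) with PRAF2 on its own strand, and WIPI1 shares 828 (24.3%) with ARSG on the other strand, whose counts went from 173 to 25.3 per library. Reads in such stretches cannot be assigned to 1 gene, and whether the counting used strand is not stated.

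For the lipid transfer and scramblase genes of the same step, several calls rested on the scaling. ATG2B, a bridge that carries lipid from the endoplasmic reticulum, rose by 0.88 ± 0.09, while its paralog ATG2A was at 0.17 ± 0.10 (edgeR adjusted p = 0.123), with 22.5, 22.7 and 23.5 CPM in control and 29.4, 24.5 and 23.5 CPM in curcumol, groups that nearly touch. With the GC offset ATG2A passed as higher at 0.90, above ATG2B at 0.63, and with library totals it was at -0.09. ATG9A, the scramblase of the vesicles that seed the membrane, rose by 0.44 ± 0.08 but did not pass with library totals (0.17), and 38.8% of its exonic bases are shared with AC068946.2 on the same strand, which held 2.67 and 1.67 counts per library. VMP1, a scramblase of the endoplasmic reticulum, was at 208, 228 and 232 CPM in control and 296, 299 and 298 CPM in curcumol, a log2 fold change of 0.42 ± 0.06 that turned to -0.15 with the GC offset (edgeR adjusted p = 0.0114). Its partner TMEM41B rose by 0.63 ± 0.09, but stood at 0.14 and did not pass with the GC offset.

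**Figure D2:**
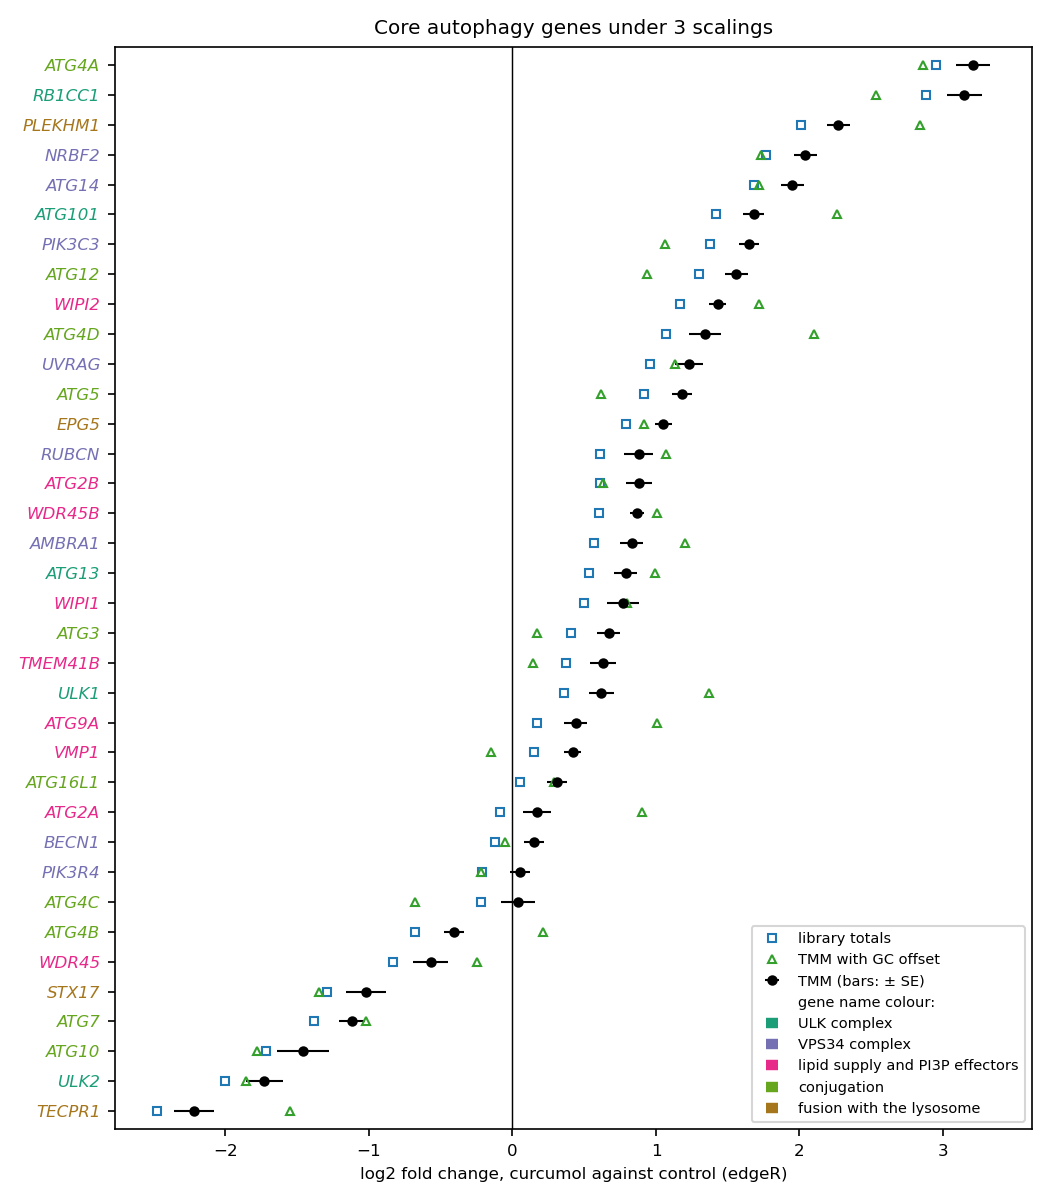
Log2 fold change of the 36 core autophagy genes, curcumol against control, ordered by size (x axis, edgeR). Black points with bars are the values with TMM scaling ± SE, blue squares those with library totals and green triangles those with an offset for GC content. The values run from -2.22 (TECPR1) to 3.21 (ATG4A), and the symbols fall on both sides of 0 for VMP1, ATG2A, BECN1, PIK3R4, ATG4C and ATG4B.

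In the conjugation step 6 of 10 genes rose, 3 fell and ATG4C did not pass. Library totals gave 5 higher and 3 lower, and the GC offset 7 and 3. Over all genes tested, 39.4% were higher and 40.3% lower. Both partners of the ATG12 and ATG5 conjugate rose, while ATG7 and ATG10, which carry ATG12 to ATG5, fell. ATG12, the ubiquitin-like protein, was at 33, 35.4 and 37.6 CPM in control and 99.4, 103 and 111 CPM in curcumol, a log2 fold change of 1.56 ± 0.08 (SE, adjusted p = 4.43e-14 by edgeR). ATG5, to which ATG12 is joined, was at 41.1, 38.2 and 38.5 CPM in control and 84.6, 88.8 and 94.3 CPM in curcumol, a log2 fold change of 1.18 ± 0.07 (SE, adjusted p = 2.8e-12 by edgeR). The treated libraries were above the control libraries for both genes. ATG16L1, which binds the conjugate and places it on the membrane, rose by 0.31 ± 0.07, and with library totals it was at 0.05 and did not pass (edgeR adjusted p = 0.559).

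ATG7, the E1-like enzyme that activates both ATG12 and ATG8 proteins (ENSG00000197548, chromosome 3, 11272309 to 11557665), was at 41.9, 36.8 and 37.2 CPM in control and 18.4, 16.8 and 18.2 CPM in curcumol. It fell by 1.12 ± 0.09 on the log2 scale (SE, adjusted p = 4.73e-10 by edgeR), to below every control library. ATG10, the E2-like enzyme for ATG12 (ENSG00000152348, chromosome 5, 81972025 to 82276857), was at 8.88, 11.9 and 9.76 CPM in control and 3.2, 4.52 and 3.35 CPM in curcumol. It fell by 1.46 ± 0.18 on the log2 scale (SE, adjusted p = 1.51e-07 by edgeR). ATG3, the E2-like enzyme for ATG8 proteins, rose instead, by 0.67 ± 0.08, or 0.17 with the GC offset (edgeR adjusted p = 0.0359). ATG7 shares 1596 exonic bases (18.1%) with VGLL4 on the other strand, which rose by 1.39, and ATG10 shares 374 (6.86%) with the ribosomal protein gene RPS23, which rose by 1.02.

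The ATG4 proteases, which cut ATG8 proteins before and after they are joined to lipid, did not move as a group: 2 rose, ATG4B fell and ATG4C did not pass. ATG4A (ENSG00000101844, chromosome X, 108091668 to 108154671) was at 4.52, 5.37 and 4.03 CPM in control and 41.2, 42.3 and 45.9 CPM in curcumol, with a log2 fold change of 3.21 ± 0.12 (SE, adjusted p = 3.99e-16 by edgeR) or 9.28-fold. ATG4D rose from 9.93 ± 1.01 to 25.1 ± 1.85 CPM (n = 3, SD), which is a log2 change of 1.34 ± 0.11, and shares 341 exonic bases (15%) with KRI1 on the other strand, which stood at -2.41. ATG4B, the protease with the widest action on ATG8 proteins, was at 68.6, 67.3 and 67.3 CPM in control and 54.1, 50.3 and 48.4 CPM in curcumol. It fell by 0.41 ± 0.07 on the log2 scale (SE, adjusted p = 2.78e-05 by edgeR), but with the GC offset it was higher at 0.21 (edgeR adjusted p = 0.00377). ATG4C, at 0.04 ± 0.12, did not pass (edgeR adjusted p = 0.759), its groups overlapped, and with the GC offset it passed as lower at -0.68.

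**Figure D3:**
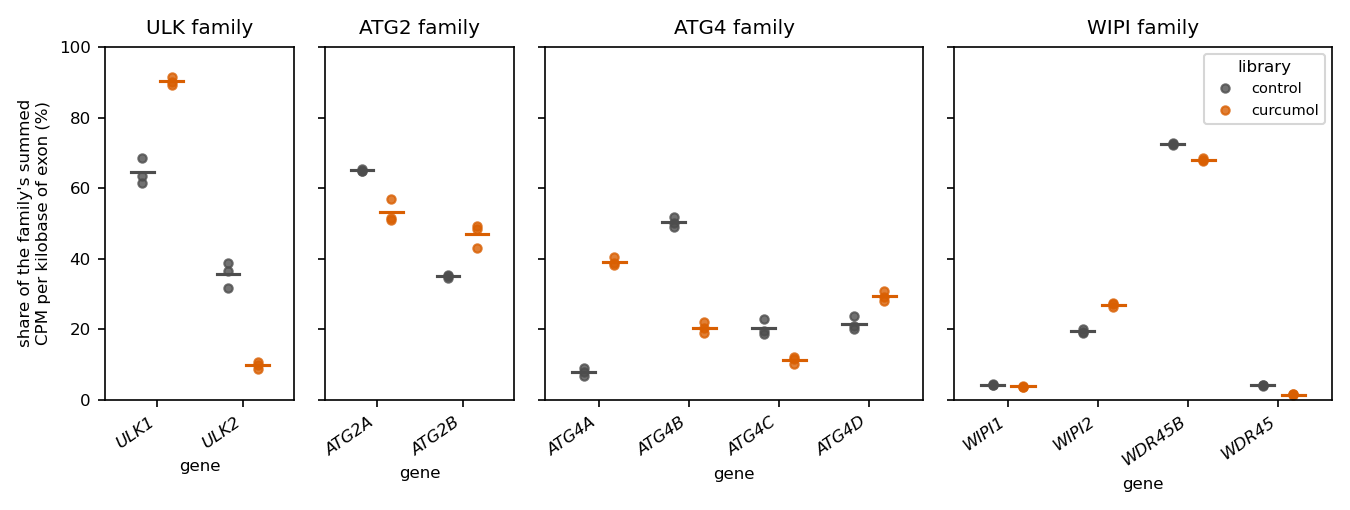
Share of each gene in the summed level of its family, in percent of CPM per kilobase of joined exon, for the ULK, ATG2, ATG4 and WIPI families. Points are libraries and short lines are group means. ATG4A goes from 7.81% to 39.1% of the ATG4 family and ULK2 from 35.6% to 9.7% of the ULK family, while WDR45B stays the largest part of the WIPI family in all 6 libraries.

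The make-up of the ATG4 family changed with these shifts. Per kilobase of exon the 4 ATG4 genes summed to 20.3 ± 0.378 CPM in control and 37.7 ± 1.04 CPM in curcumol (SD, n = 3). ATG4B made up 50.4% ± 1.41 of that sum in control and 20.4% ± 1.68 in curcumol, and ATG4A went from 7.81% ± 1.03 to 39.1% ± 1.15. These shares were computed without the GC offset, with which the log2 fold change was 2.86 for ATG4A, 2.10 for ATG4D and 0.21 for ATG4B. In the WIPI family the sum went from 74.5 ± 0.228 to 145 ± 2.07 CPM per kilobase, with WIPI2 at 19.3% ± 0.588 and 26.8% ± 0.601 and WDR45 at 4.02% ± 0.112 and 1.4% ± 0.147. The joined exon length can exceed that of the mRNA in use, so the shares carry the error of those lengths. The same length was used for both groups, and whether the mRNA in use differed in length between them was not tested.

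For fusion with the lysosome 2 genes rose and 2 fell, also with library totals and with the GC offset. With TMM factors each changed by more than 2-fold. All genes tested split into 39.4% higher and 40.3% lower, with the rest not called. PLEKHM1, an adaptor that binds RAB7, the HOPS tether and ATG8 proteins (ENSG00000225190, chromosome 17, 45435900 to 45490749), was at 25.6, 27.2 and 23.4 CPM in control and 123, 122 and 123 CPM in curcumol. Its log2 fold change was 2.27 ± 0.08 (SE, adjusted p = 7.86e-17 by edgeR). Its pseudogene PLEKHM1P1 was counted apart, with 118 counts per library in control and 109 in curcumol. EPG5, a RAB7-bound tether, was at 95.5, 103 and 100 CPM in control and 194, 213 and 212 CPM in curcumol, a log2 fold change of 1.05 ± 0.06 (SE, adjusted p = 1.06e-12 by edgeR). It was under 2-fold with library totals (0.79) and with the GC offset (0.92).

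TECPR1, a tether that binds the ATG12 and ATG5 conjugate (ENSG00000205356, chromosome 7, 98214624 to 98252251), was at 23.6, 21.8 and 18.3 CPM in control and 4.36, 4.83 and 4.48 CPM in curcumol. It fell by 2.22 ± 0.14 on the log2 scale (SE, adjusted p = 2.59e-12 by edgeR), or by 1.55 with the GC offset. STX17, the SNARE protein of the closed autophagosome (ENSG00000136874, chromosome 9, 99906633 to 99970341), was at 21.9, 18.8 and 19.3 CPM in control and 7.75, 12.1 and 9.66 CPM in curcumol. It fell by 1.02 ± 0.14 on the log2 scale (SE, adjusted p = 6.28e-07 by edgeR). The treated libraries lay below the control libraries for both genes, with a wider spread for STX17.

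Ratios of raw counts within a library do not depend on how libraries are scaled, and 8 pairs of core genes, chosen after their values were seen, were set side by side. The log2 ratio of PLEKHM1 to TECPR1 was 0.12, 0.32 and 0.35 in control and 4.82, 4.66 and 4.78 in curcumol. That of ATG4A to ATG4B was -3.92, -3.65 and -4.06 in control and -0.39, -0.25 and -0.08 in curcumol. That of ATG12 to ATG10 went from 1.81 ± 0.20 to 4.84 ± 0.29 (SD, n = 3). ATG5 and ATG7 had nearly equal counts in control (0.02 ± 0.05) and stood 2.32 ± 0.11 apart in curcumol. The ratio of ULK1 to ULK2 went from 0.49 ± 0.23 to 2.85 ± 0.17, that of WIPI2 to WDR45 from 2.98 ± 0.08 to 4.99 ± 0.18, that of ATG14 to UVRAG from 0.61 ± 0.11 to 1.33 ± 0.07 and that of ATG2B to ATG2A from 0.01 ± 0.03 to 0.73 ± 0.20. None of the 8 ratios overlapped between the groups, where 81% of all genes tested were separated in their own levels. Each gave a two-sided exact permutation p of 0.1, also after Benjamini-Hochberg adjustment over the 8. This is the smallest p that 3 against 3 libraries allow. Because the pairs were chosen after their values were seen, neither the separation nor the p is evidence about these genes. The ratio is not free of base composition, as the ATG2 pair shows by its reversed order with the GC offset.

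**Figure D4:**
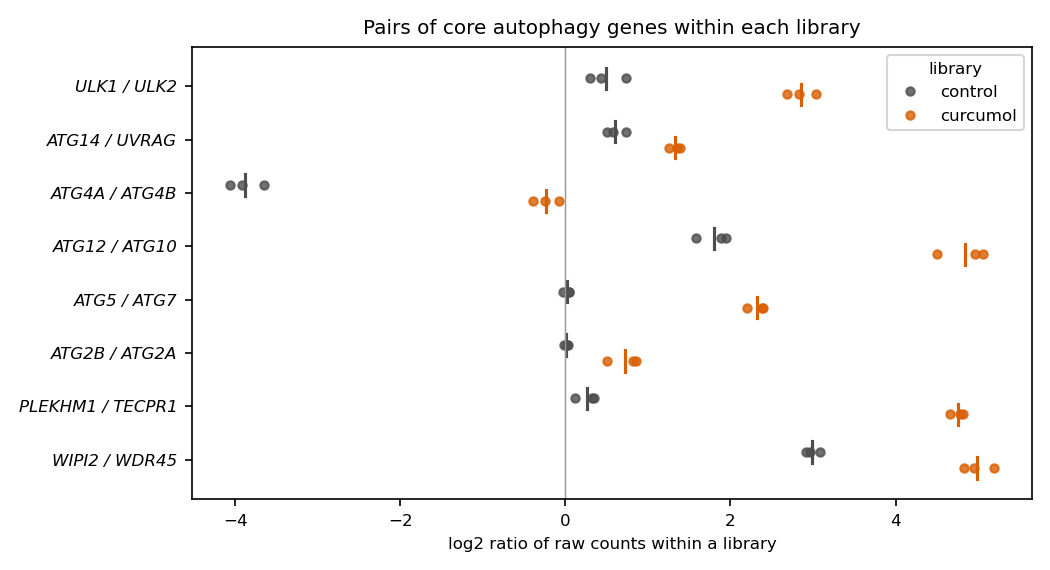
Log2 ratio of raw counts of 8 pairs of core autophagy genes within each library (x axis). Points are the 3 control and 3 curcumol libraries and short vertical lines are group means. The groups do not overlap for any of the pairs, which were chosen after their values were seen. The shift is widest for PLEKHM1 over TECPR1, from 0.27 to 4.76.

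Other genes of the pathway, in 4 further lists with 58 genes, rose more often than they fell. Of 56 tested, 41 rose, 12 fell and 3 did not pass, and their median was 0.74 on the log2 scale. Among all genes tested, 39.4% were higher and 40.3% lower. Scaling by library totals gave 35 higher and 14 lower genes in these lists, and the GC offset gave 38 and 15. Earlier results of these data were known when the lists were drawn up, so their counts are a description and not separate support. Among ATG8 proteins and cargo receptors 10 of 11 tested genes rose and MAP1LC3A fell, a call that was lost with the GC offset (-0.31) and a gene named after its values were seen. GABARAPL1 went from 26.1 ± 3.12 to 633 ± 23.6 CPM and MAP1LC3B from 81.9 ± 7.71 to 1083 ± 44.6 CPM, both ATG8 proteins, and the receptor SQSTM1 went from 373 ± 6.78 to 1198 ± 73.8 CPM (SD, n = 3). The log2 fold changes were 4.60 ± 0.08, 3.72 ± 0.07 and 1.68 ± 0.06, so the first and second exceeded that of every core gene. Of 12 partners in fusion and tethering 9 rose and 2 fell, or 6 and 2 with library totals. The small GTPases RAB7A (1.28 ± 0.05) and RAB2A (0.90 ± 0.06) and the SNARE gene VAMP7 (1.35 ± 0.07) had the smallest p of that list and rose.

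Of 15 tested accessory factors 9 rose and 4 fell, or 9 and 6 with library totals and with the GC offset. For this list and the next, the shares over all genes tested were 39.4% higher and 40.3% lower. ZFYVE1, the PI3P-binding protein DFCP1 that marks sites of autophagosome formation, rose from 10.3 ± 1.39 to 55.2 ± 5.64 CPM (n = 3, SD), which is a log2 change of 2.42 ± 0.11. SH3GLB1, a membrane-bending partner of UVRAG, rose by 1.18 ± 0.07, and TP53INP1, a p53 target that binds ATG8 proteins, by 1.28 ± 0.08. In the list of upstream control 13 of 18 genes rose and 5 fell, or 10 and 5 with library totals and 10 and 7 with the GC offset. The kinase gene MTOR, whose product holds the ULK complex back, fell by 0.64 ± 0.06 on the log2 scale, from 126 ± 2.44 to 80.8 ± 1.46 CPM (SD, n = 3). Its partners in mTOR complex 1, RPTOR (-1.40 ± 0.08) and MLST8 (-1.32 ± 0.10), also fell, less so with the GC offset (-0.82 and -0.57). The members of the TSC brake on that kinase went apart, with TSC1 higher by 2.05 ± 0.06 and TSC2 at -1.38 ± 0.10 and lower. With the GC offset TSC2 was at -0.77. The GTPase RHEB, an activator of the kinase, rose by 1.48 ± 0.06, and AKT1S1, an inhibitory subunit, by 1.84 ± 0.07. DEPTOR, of the same list and at a mean of 0.882 CPM in control, rose by 1.87 ± 0.33. RPTOR, MLST8, TSC2 and DEPTOR were named after their values were seen. TFEB rose from 6.04 ± 0.645 to 11.6 ± 1.95 CPM (n = 3, SD), which is a log2 change of 0.94 ± 0.15, and its relative TFE3 by 0.21 ± 0.07, with TFE3 at -0.06 and not passing with library totals. The TFE3 call was also lost without control replicate 1 (0.19), control replicate 3 (0.16) or curcumol replicate 1 (0.16).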

How the data were processed

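Poly(A) RNA of 3 control and 3 curcumol cultures was sequenced with paired-end Illumina reads, per the labels' protocols. The authors deposited raw counts, whole numbers per Ensembl gene that were not normalized. The submitters' processing notes give GRCh38 (hg38) as the build. Aligner, counting tool, annotation release and use of strand were not given in the sources used here, so shared exonic bases were counted for each core gene. All 58735 identifiers are in GENCODE 29, which gave coordinates, joined exon lengths, exon overlaps and the GC content of the longest transcript.

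The whole table was filtered with filterByExpr (15160 genes), scaled with TMM and tested with edgeR 4.0.16 (quasi-likelihood F test, robust, R 4.3.3), with Benjamini-Hochberg adjustment over all genes tested, and 0.05 was the threshold. The SE is |log2 fold change| over the root of the F statistic. The GC offset was a natural spline (df 5) fitted in each library. The code was tested on simulated data in which most genes were unchanged, so a change as wide as the one seen here was not covered. Depth was 16962012 to 17827433 counts per library, and the SE of each gene gives the precision that this depth and 3 libraries per group allow. No library was a copy of another: within groups, chi-square over its degrees of freedom was 3.68 to 8.82.

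All 36 core genes are named. Of each of the 4 other lists the 3 genes with the smallest p are named, with TFEB, TFE3, MTOR and SQSTM1. Outside this rule MAP1LC3A, RPTOR, MLST8, TSC2 and DEPTOR were named after their values were seen. The members and lists were chosen with earlier results of these data known. Alternatives were DESeq2 1.42.0, limma-voom (limma 3.58.1), 2 other scalings (size factors of the DESeq2 type, library totals), 2 other filters, a replicate block, a GC offset, both together, a test against a 1.2-fold change, and leaving out each library.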

Additional observations from a re-analysis of the deposited data

How the results depend on the processing

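Of the 36 core genes, 26 kept their direction and their side of the threshold under all 16 alternatives, 21 of them higher and 5 lower. The counts of core genes, of other pathway genes and of all genes called higher or lower stayed within 1.5 times their reported values under every alternative. The median log2 fold change of the core genes was 0.51 with library totals, 0.73 without a filter on low counts, 0.91 with the GC offset, and 0.73 to 0.80 when 1 library was left out, the lowest without control replicate 3.

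Signs turned for few genes. With library totals BECN1 stood at -0.12, PIK3R4 at -0.21, ATG2A at -0.09, ATG4C at -0.22 and TFE3 at -0.06. With the GC offset, without and with the replicate block, BECN1 stood at -0.05, PIK3R4 at -0.22, VMP1 at -0.15, ATG4B at 0.21 and ATG4C at -0.68. ATG4C, at 0.04, was at -0.01 without a filter on low counts and at -0.01 to 0.12 when 1 library was left out. BECN1 was also not called without a filter and against a 1.2-fold change, nor was ATG16L1 in the latter. The cause of these changes was not tested.

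Deviations of libraries with the same replicate number had correlations of 0.0238, -0.0123 and 0.0751, against -0.0761 to 0.0542 for the other pairs. The labels name no shared batch, and these few values cannot exclude one. With the replicate block 26 core genes were higher and 7 lower, and 5955 of all genes were higher against 5967 without it. Low levels limit the precision for ATG10, at 3.2 to 4.52 CPM in curcumol, whose fold change has an SE of 0.18.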

Other observations

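Fold changes went with base composition across the transcriptome. Across 15154 tested genes the log2 fold change had a Spearman rho of -0.34 with GC content, and across the 36 core genes the rho was -0.16, or 0.21 after the GC offset. These are descriptions across genes, which share libraries and are not independent replicates. The core genes had a median GC content of 46.6%, close to the 48% of all genes tested.

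Levels per length also placed the core genes. Per kilobase of exon, WDR45B was highest in both groups, at 54 CPM in control and 98.7 CPM in curcumol, followed in control by VMP1 at 32.2 CPM and in curcumol by NRBF2 at 50.6 CPM, with ATG101 at 43.2 and VMP1 at 43.1 CPM next. In control ATG2B (1.56 CPM per kilobase) and ATG4A (1.58) were lowest, and in curcumol TECPR1 (0.503), ULK2 (0.626) and ATG10 (0.677) were.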
